A study of Penicillium oxalicum with 24 samples.

Results

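A set of 213 of the 9832 genes in the deposited table of *Penicillium oxalicum* was described here, chosen because their transcripts were less abundant on cellulose without the transcription factor AmyR and no less abundant without the repressor CreA. The rule used mean RPKM, which divides the reads of a gene by its transcript length and by the total of its library. A gene was taken when it had at least 5 RPKM in the wild-type strain on cellulose, when its RPKM in Δ*amyR* was at most 0.4 of that level, and when its RPKM in the Δ*creA* mutant was at least equal to it. *amyR* itself and 7 genes of starch degradation named in the rule were left out, 4 of which met it. Of 7747 genes with at least 5 RPKM in the wild-type strain, 426 met the limit in Δ*amyR*, and 217 of these also met the one in Δ*creA*.

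RNA was sequenced from 24 cultures of the fungus, 3 biological replicates of each of 8 combinations of strain and medium. All had grown for 22 h on 2% glucose. The wild-type strain 114-2 was then analysed after 4 h in medium without carbon source, after 4 h on 2% glucose and after 4 h on 2% cellulose. The mutants were analysed after 4 h on 2% cellulose only, namely the single deletions Δ*amyR*, Δ*clrB* and Δ*creA*, the double deletion Δ*creA*-Δ*clrB*, and lastly the strain Δ*creA-gpdA*(p)::*clrB*. A step of 2 h without carbon source came before the transfer to glucose or cellulose. The methods of the study describe this step for the cultures without carbon source too, but the labels of those samples do not list it. For Δ*creA-gpdA*(p)::*clrB*, *creA* was deleted in a strain that expressed *clrB* from the *gpdA* promoter, and the Δ*creA*-Δ*clrB* strain was made by deleting *creA* in the Δ*clrB* strain, so that both of these mutants lack CreA, as Δ*creA* does.

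AmyR is a zinc cluster transcription factor known in *Aspergillus* as the activator of amylase and glucoamylase genes. CreA is the repressor through which many filamentous fungi shut off genes for alternative carbon sources while glucose is present, and ClrB is an activator of cellulase genes. Ribosomal protein genes, which make up a large share of the genes described here, are expressed in proportion to growth in fungi, whereas genes for secondary metabolites often lie side by side in the genome and are often expressed together when growth is slow.

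Each library held between 6.95 and 8.58 megareads on genes. The targeted genes were examined first. *amyR* (PDE_03964) had 1, 0 and 0 reads in the 3 Δ*amyR* libraries against 2900 to 3045 in the wild-type strain on cellulose, *creA* (PDE_03168) had 0 to 2 reads in each library of the strains that lack it, and *clrB* (PDE_05999) had 1 to 3 reads in those of Δ*clrB* and Δ*creA*-Δ*clrB*. The 20 most abundant genes took 24.5 to 25.3% of the reads in Δ*creA*, 26.4 to 32.5% in Δ*creA-gpdA*(p)::*clrB* and 17.0 to 18.4% in Δ*amyR*, but 10.4 to 10.6% in the wild-type strain on cellulose. Because such genes lower the RPKM of all others, fold changes were taken from read counts scaled by TMM, which takes the scale from the genes that differ least between libraries. Relative to that, scaling by library totals, as in RPKM, put the median of all genes, in log2 fold change, at -0.43 from wild-type to Δ*amyR* and at -0.45 from wild-type to Δ*creA*. How much of these shifts the most abundant genes account for was not tested. In bulk RNA, fewer cells that express a gene and less RNA per cell cannot be told apart.

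The genes were not uniform in the ratios that had chosen them. The level in Δ*amyR* divided by the wild-type level on cellulose had a median of 0.321, from 0.035 for PDE_04665 to the limit of 0.4. The nearest genes inside the limit were PDE_02957, a sulfate transporter (0.3996), PDE_00475 (0.3991) and PDE_05183, the homoisocitrate dehydrogenase of lysine synthesis (0.3977), and the nearest outside were PDE_06880 (0.4001), PDE_03397, a ribosomal protein L24e (0.4024), and PDE_05339 (0.4033). On the side of *creA*, PDE_09402, PDE_03401 and PDE_09003 stood just inside with ratios of Δ*creA* to wild-type of 1.01, 1.01 and 1.02, and PDE_04915, a cutinase, PDE_09284 and PDE_00734 just outside with 0.997, 0.997 and 0.992. The ratio was highest for PDE_09492, at 31.2, followed by PDE_04665 at 18.0 and PDE_01430 at 14, none of which has a KEGG name.

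How many genes were taken depended on the limit and on the scale. With a limit of 0.33 in Δ*amyR*, 113 of the 213 remained. With the same rule applied to RPKM rescaled by the TMM factors, 100 genes were taken, of which 87 were among the 213. The 2 main groups described below behaved unequally, since 37 of 43 genes in runs of neighbouring locus tags were taken again and only 3 of 51 ribosomal protein genes, whose median ratio of Δ*amyR* to wild-type was 0.362 in RPKM and 0.482 after rescaling. The 2 ratios chose the genes and are given as a description.

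**Figure D1:**
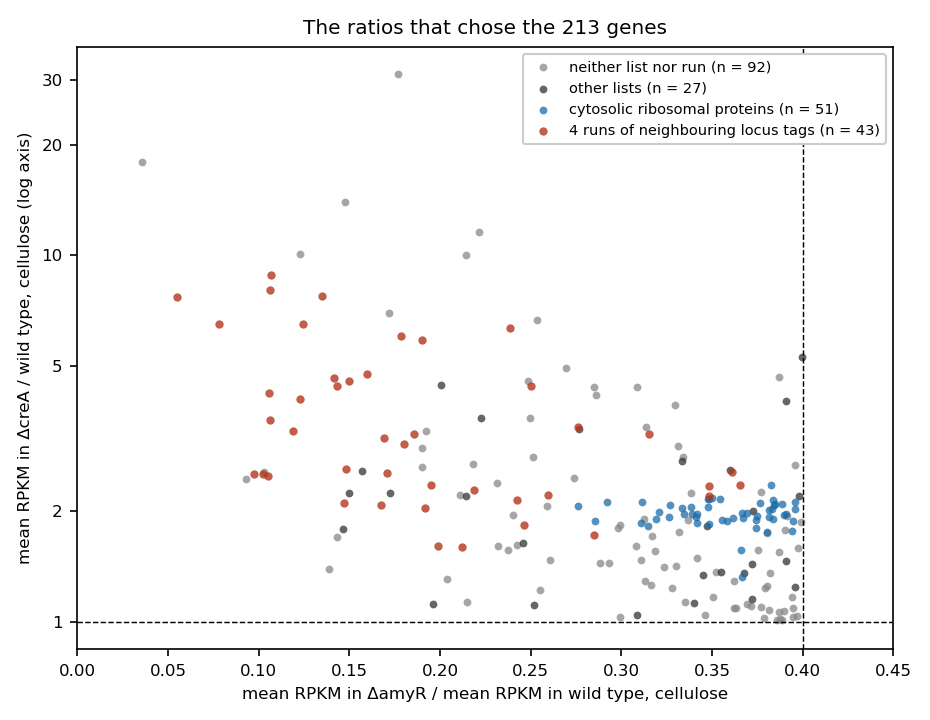
Ratio of mean RPKM in ΔamyR to wild-type on cellulose (x axis) and of ΔcreA to wild-type (y axis, log scale) for each of the 213 genes, with the limits of the rule dashed. The 51 ribosomal protein genes lie between 0.276 and 0.396 on the x axis, close to the limit of 0.4, and the 43 genes of the 4 runs reach down to 0.055.

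Annotation was available for 172 of the 213 genes, from the tables of the study, and 99 carried a KEGG name. Those tables list genes that the study selected on these libraries, among them genes lower in Δ*amyR*. The counts below are therefore of annotated genes and not of complete pathways, and genes of a pathway that changed less can lack annotation. The largest annotated group was the cytosolic ribosome, with 51 of the 72 annotated genes for its proteins. A further 43 genes lay in 4 runs of locus tags at most 3 apart, and the remaining lists held from 8 genes (amino acid biosynthesis) to 1 gene (protein entry into the endoplasmic reticulum). Annotated genes that the rule did not take were 3 of amino acid biosynthesis, 2 of sulfate assimilation, 5 chaperones and 6 of the endoplasmic reticulum list. Among them the ratio of Δ*amyR* to wild-type reached 3.19 for an amino acid gene. The ratio of Δ*creA* to wild-type was as low as 0.421 for a chaperone. In neither a list nor a run were 92 genes.

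Of the comparisons between groups, 3 that compared no libraries of the rule were tested. They were glucose against no carbon source in the wild-type strain, Δ*creA*-Δ*clrB* against Δ*clrB* on cellulose, which is the effect of deleting *creA* where *clrB* is already missing, and the same double mutant against Δ*creA-gpdA*(p)::*clrB* on cellulose, which sets constitutive *clrB* against none where *creA* is missing. The latter pair share the Δ*creA*-Δ*clrB* libraries. Calls required a log2 fold change beyond 1 in size and a p below 0.05 in the quasi-likelihood test of edgeR, adjusted over 9176 genes by the Benjamini-Hochberg method. All 213 genes were among those tested, as the rule asks for 5 RPKM in the wild-type strain.

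On glucose, 87 of the 213 genes were called higher than without carbon source and 88 were called lower. Among all genes tested, 19.5% were called higher and 23.1% lower. The genes thus split into groups of nearly equal size that went opposite ways, and the split followed the annotation, since all 51 ribosomal protein genes rose and 40 of the 43 genes in runs fell. The genes that rose had a median transcript length of 582 bases and a median of 277 RPKM in the wild-type strain on cellulose, against 1054.5 bases and 35.7 RPKM for those that fell.

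Deletion of *creA* in the Δ*clrB* strain left 100 of the 213 genes higher and 3 lower, beside 9.99% of all genes higher and 7.99% lower. The rule took only genes no lower in Δ*creA* than in the wild-type strain, so a lean to higher here was not independent of that choice. The genes called higher included 70 of the 87 that rose on glucose and 23 of the 88 that fell. This count rested on the third library of each strain. It was 67 without the third Δ*clrB* library, 69 without the third Δ*creA*-Δ*clrB* library and 35 without both, a comparison chosen after the data were seen, and 61 with libraries scaled by their totals.

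With constitutive *clrB*, in Δ*creA-gpdA*(p)::*clrB*, 150 of the 213 genes were higher than in Δ*creA*-Δ*clrB* and 7 were lower, beside 8.9% of all genes higher and 12.2% lower. Here the genes that had gone opposite ways on glucose went the same way, as 65 of the 87 that rose on glucose and 69 of the 88 that fell were called higher. Because Δ*creA*-Δ*clrB* lacks *clrB*, this comparison does not tell constitutive *clrB* from *clrB* under its own promoter.

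**Figure D2:**
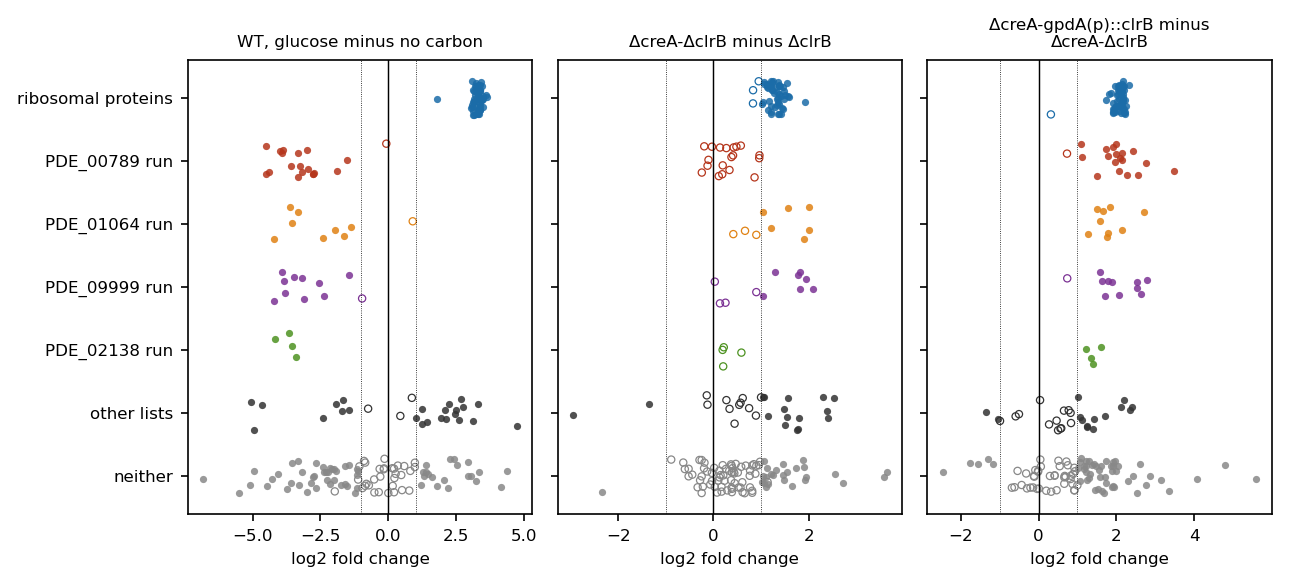
Log2 fold change of each of the 213 genes in the 3 tested comparisons, by group of genes, with filled points for genes called and open points for the rest and dotted lines at -1 and 1. The 51 ribosomal protein genes lie to the right in each panel (3 of them not called in the middle panel and 1 in the last), while the runs lie to the left on glucose and to the right in the last panel.

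The ribosomal protein genes had the highest levels of the annotated groups on glucose. The median RPKM of the 51 genes was 257 in wild-type cultures without carbon source, 2204 in those on glucose and 382 in those on cellulose. On cellulose it was 213 in Δ*clrB* and 136 in Δ*amyR*, and among the strains without *creA* 802 in Δ*creA*, 427 in the double mutant and 1430 in Δ*creA-gpdA*(p)::*clrB*. As a share of all reads on genes, the 51 genes took 4.99 to 5.53% in the 3 glucose libraries and 0.304 to 0.384% in the 3 Δ*amyR* libraries. The third Δ*clrB* library, at 0.28%, was below these. The low level in Δ*amyR* is part of how the genes were chosen.

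**Figure D3:**
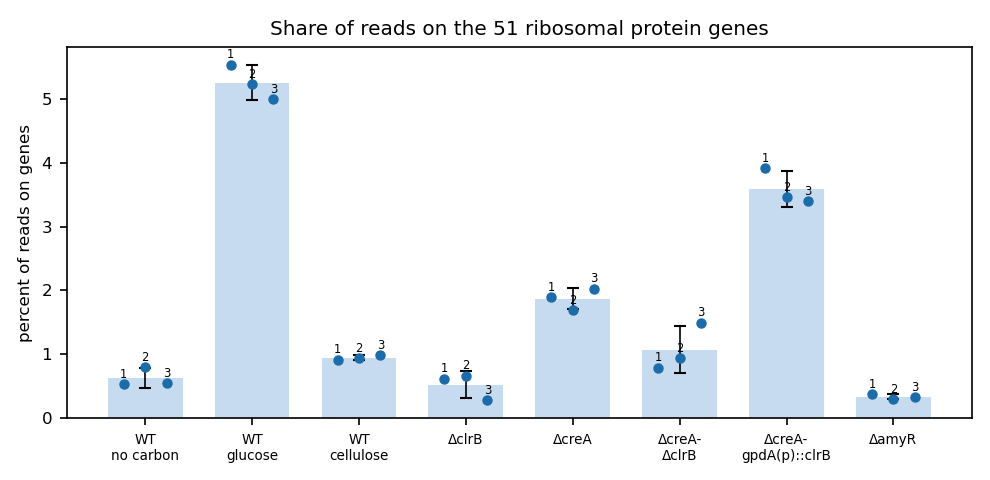
Percent of the reads on genes that fell on the 51 ribosomal protein genes, with bars for the mean and error bars for the SD of 3 libraries, and points numbered by replicate. The third ΔclrB library (0.28%) and the third ΔcreA-ΔclrB library (1.5%) stand apart from the others of their groups.

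From no carbon source to glucose, the 51 genes rose with a median log2 fold change of 3.31, within a range of 1.77 to 3.61. PDE_08100, the gene for protein S18e of the small subunit, had 421, 661 and 440 RPKM without carbon source and 4793, 4859 and 4295 RPKM on glucose. Each glucose library was above each library without carbon source, with a log2 fold change of 3.41 (standard error 0.26, adjusted p = 3.6e-10). PDE_02864, which encodes protein S8e and whose promoter the study used to drive *clrB* in another strain, had 267, 382 and 269 RPKM without carbon source and 2893, 2762 and 2631 RPKM on glucose, a log2 fold change of 3.38 (standard error 0.26, adjusted p = 6.2e-10). PDE_02248, the gene for the small protein L39e of the large subunit, rose by a log2 fold change of 3.05 (standard error 0.20, adjusted p = 4.2e-11). The lowest value of the group, 1.77, was that of PDE_05375, 1 of 2 genes with the KEGG name L24e, which was singled out after its values were seen.

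Between Δ*clrB* and Δ*creA*-Δ*clrB*, 48 of the 51 ribosomal protein genes were called higher, with a median log2 fold change of 1.32. PDE_08100 had 512, 568 and 235 RPKM in the 3 Δ*clrB* libraries and 750, 860 and 1453 RPKM in the 3 of Δ*creA*-Δ*clrB*. The groups did not overlap (log2 fold change 1.5, standard error 0.24, adjusted p = 8.3e-05), but the third library of each strain lay farthest from the other strain. The same held for PDE_02864, with 317, 398 and 132 RPKM against 520, 555 and 841 RPKM (log2 fold change 1.46, standard error 0.25, adjusted p = 0.00013). Without the third Δ*clrB* library 28 of the 51 genes were called, without the third Δ*creA*-Δ*clrB* library 26, and without both 1, at a median log2 fold change of 0.74. What sets these libraries apart was not tested.

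From the double mutant to Δ*creA-gpdA*(p)::*clrB*, 50 of the 51 genes rose, with a median log2 fold change of 2.08. PDE_08100 stood at 3215, 3142 and 2908 RPKM in Δ*creA-gpdA*(p)::*clrB* (log2 fold change 1.91, standard error 0.24, adjusted p = 2.8e-06), and PDE_02864 at 2153, 1827 and 1960 RPKM (log2 fold change 1.93, standard error 0.25, adjusted p = 3.4e-06). All 3 libraries of this strain were above those of the other for both genes. With any of the 6 libraries left out, 50 or 51 of the genes were called. The exception was again PDE_05375, whose RPKM of 30.3, 84.2 and 214 in Δ*creA*-Δ*clrB* and 197, 97.8 and 35.3 in Δ*creA-gpdA*(p)::*clrB* overlapped.

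The 21 annotated ribosomal protein genes that the rule did not take went the same way in these comparisons. All 21 rose on glucose with a median log2 fold change of 3.19, 19 were called higher in Δ*creA*-Δ*clrB* than in Δ*clrB* with a median of 1.26, and all 21 were higher in Δ*creA-gpdA*(p)::*clrB* than in Δ*creA*-Δ*clrB* with a median of 1.94. Their ratios of Δ*amyR* to wild-type lay between 0.402 and 0.5, directly above the limit. The study listed genes as lower in Δ*amyR* when the log2 fold change was beyond 1, a ratio under 0.5. The range thus lies between 2 cutoffs on the same ratio, and ribosomal protein genes that fell less can lack annotation and are not counted.

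Genes for other parts of protein synthesis followed the ribosome on glucose. PDE_08272 and PDE_00206, named as subunits 1 and 2 of the H/ACA particle that modifies ribosomal RNA, rose by log2 fold changes of 2.22 (standard error 0.27, adjusted p = 3.6e-07) and 2.50 (standard error 0.38, adjusted p = 6.1e-06). PDE_09594, the alpha subunit of the SEC61 channel through which proteins enter the endoplasmic reticulum, had 107, 153 and 151 RPKM without carbon source and 271, 289 and 279 RPKM on glucose, with no overlap (log2 fold change 1.24, standard error 0.16, adjusted p = 7.9e-07). The largest increases on glucose that the naming rule picked were those of PDE_02091, PDE_07836 and PDE_06802. PDE_07836 encodes subunit c of the F-type ATPase, the ring of the mitochondrial ATP synthase, and had 254, 356 and 298 RPKM without carbon source and 5281, 5415 and 5498 RPKM on glucose (log2 fold change 4.37, standard error 0.23, adjusted p = 2.5e-12). PDE_06802, a hypothetical protein, rose from 263, 237 and 314 RPKM to 3907, 4199 and 4458 RPKM (log2 fold change 4.15, standard error 0.25, adjusted p = 1.2e-11).

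Of the 8 annotated genes of amino acid biosynthesis among the 213, 6 rose on glucose, 1 fell and 1 was not called. PDE_02091, the ketol-acid reductoisomerase of branched-chain amino acid synthesis, had 45.1, 68.3 and 72.2 RPKM without carbon source and 1395, 1455 and 1368 RPKM on glucose (log2 fold change 4.72, standard error 0.30, adjusted p = 3.7e-11). It was also higher in Δ*creA*-Δ*clrB*, with 112, 81.3 and 133 RPKM, than in Δ*clrB*, with 33, 55.8 and 27.1 RPKM (log2 fold change 1.76, standard error 0.27, adjusted p = 5.6e-05). The arginine pathway genes PDE_09048 (argininosuccinate synthase) and PDE_01650 (argininosuccinate lyase) rose on glucose by log2 fold changes of 2.61 and 3.12, and the lysine pathway gene PDE_05183 by 3.28.

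In Δ*creA*-Δ*clrB* against Δ*clrB*, 7 of the 8 amino acid genes were called higher and 1 lower, and the same numbers were called without the third library of both strains. Over all 15 alternatives 5 to 7 were called higher, and PDE_09048 lost its call in 5 of them. The gene that was lower was PDE_01370, the beta chain of tryptophan synthase, with 19.9, 61.5 and 69.0 RPKM in Δ*clrB* and 10, 2.6 and 3.7 RPKM in Δ*creA*-Δ*clrB* (log2 fold change -2.94, standard error 0.62, adjusted p = 0.00091). In the wild-type strain on cellulose PDE_01370 had 17.8 ± 17.0 RPKM (mean ± SD, n = 3), so that its place in the set rested on uneven libraries. The gene with the highest level of this list in the wild-type strain on cellulose, PDE_00008, behaved unlike the rest. It is named a 3-dehydroquinate synthase, the enzyme that closes the ring in the shikimate pathway of aromatic amino acids, and it had 29.3, 182 and 132 RPKM without carbon source but 3.7, 3.3 and 4.3 RPKM on glucose (log2 fold change -4.67, standard error 0.61, adjusted p = 1e-06). It rose where *creA* was deleted in the Δ*clrB* strain, from 87.2, 95.2 and 26.0 RPKM to 202, 266 and 422 RPKM (log2 fold change 2.38, standard error 0.53, adjusted p = 0.0013).

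Among the 213 were 6 annotated genes of sulfate uptake and assimilation. Their median was 64.1 RPKM in the wild-type strain on cellulose, 182 RPKM in Δ*creA* and 13.5 RPKM in Δ*amyR*. On glucose 4 of them rose and 1 fell. PDE_02003, the phosphoadenosine phosphosulfate reductase, had 62.2, 116 and 130 RPKM without carbon source and 461, 286 and 378 RPKM on glucose (log2 fold change 2.10, standard error 0.38, adjusted p = 5.6e-05). PDE_09141, the sulfhydrylase that joins sulfide to the carbon skeleton, fell from 40.6, 87.5 and 99.3 RPKM to 20.9, 18.6 and 21.1 RPKM (log2 fold change -1.68, standard error 0.32, adjusted p = 9.4e-05). The 4 genes that rose encode that reductase, a sulfate transporter, a sulfite reductase subunit and homoserine O-acetyltransferase. In Δ*creA*-Δ*clrB* against Δ*clrB*, 4 of the 6 were called higher and none lower. The count was 2 without the first Δ*creA*-Δ*clrB* library and 6 without the third, and the transporter gene PDE_02957 lost its call in 8 of 15 alternatives. The largest difference of the list was that of PDE_09141, with 26.6, 27.6 and 15.1 RPKM in Δ*clrB* and 114, 111 and 104 RPKM in Δ*creA*-Δ*clrB* (log2 fold change 2.53, standard error 0.33, adjusted p = 1.1e-05).

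The chaperone genes PDE_02379, a cytosolic heat shock protein of the 70-kDa family, and PDE_04315, the GroEL-type chaperonin of mitochondria, had their highest levels among the cellulose cultures in Δ*creA*-Δ*clrB*. PDE_02379 had 468, 503 and 448 RPKM in Δ*clrB* and 1241, 2846 and 2200 RPKM in Δ*creA*-Δ*clrB*, without overlap (log2 fold change 2.40, standard error 0.28, adjusted p = 4.7e-06). PDE_04315 had 104, 94.2 and 66.3 RPKM against 199, 518 and 368 RPKM (log2 fold change 2.30, standard error 0.27, adjusted p = 4.7e-06). Here the second Δ*creA*-Δ*clrB* library was the highest, unlike for the ribosomal proteins, and both genes were also called without the third library of both strains.

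The 43 genes in runs had lower levels than the ribosomal protein genes and the reverse response to glucose. The first run, PDE_00789 to PDE_00811, held 19 of 23 tags in the table, PDE_01064 to PDE_01074 held 9 of 11, PDE_02138 to PDE_02141 all 4, and PDE_09999 to PDE_10010 held 11 of 12. Few of these genes have a KEGG name. In the first run, PDE_00797 and PDE_00807 carry the gene ontology term of enzymes that add a prenyl group to tryptophan in the synthesis of indole alkaloids, PDE_00789 is named a ligase and PDE_00811 a cytochrome P450. In the second, PDE_01066 is named an enzyme that prenylates cyclic dipeptides, beside the methyltransferases PDE_01065 and PDE_01069. The last run holds PDE_10000, named a paspaline synthase, PDE_10001, a geranylgeranyl diphosphate synthase, and PDE_10009, named for verruculogen synthase. Paspaline and verruculogen are indole compounds of other moulds, and whether *P. oxalicum* makes either was not measured.

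The 7 tags inside the runs that were not taken failed the rule in different ways. In the first run, PDE_00793, PDE_00801, PDE_00810 and PDE_00791 had ratios of Δ*amyR* to wild-type of 0.420, 0.545, 0.647 and 0.713. PDE_01071 and PDE_10006 met both ratios but had 0.873 and 1.89 RPKM in the wild-type strain on cellulose, under the minimum of 5, and PDE_01072 had no reads there.

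**Figure D4:**
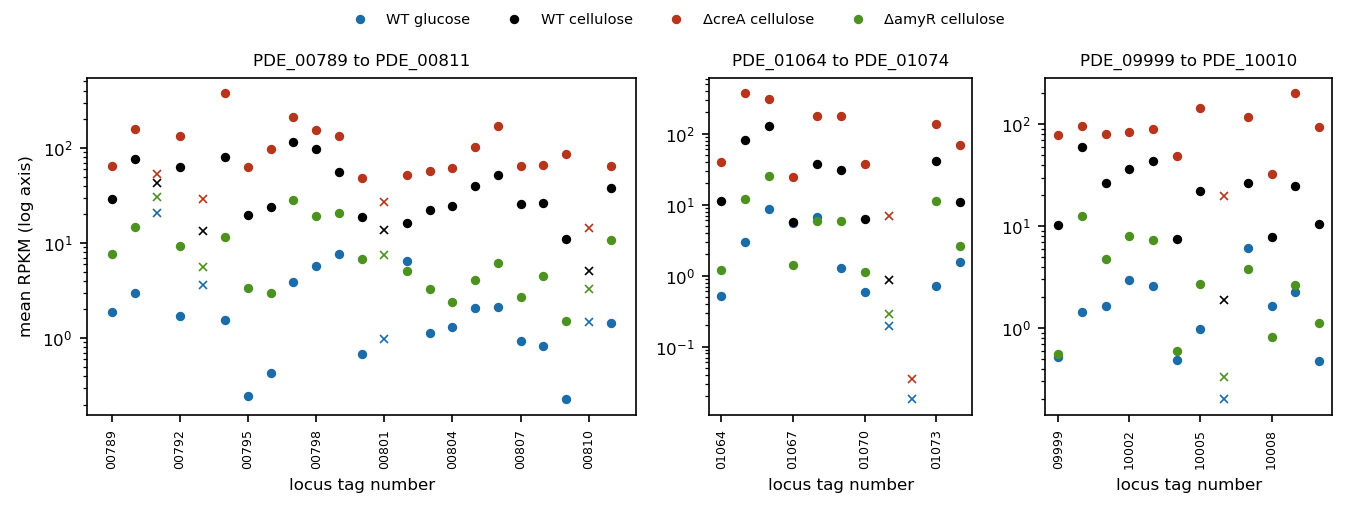
Mean RPKM (log axis) of the genes in 3 of the runs, in order of locus tag, for 4 groups of 3 libraries each, with dots for genes taken by the rule and crosses for tags between them that were not. For each of the 43 dots in all runs, ΔcreA stands above wild-type and wild-type above ΔamyR, as the rule requires, and glucose stands lowest for most.

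Across the 8 groups, each run had its lowest median RPKM on glucose and its highest in Δ*creA*, while the double mutant differed between runs. The median RPKM of PDE_00789 to PDE_00811 in the wild-type strain was 29.2 on cellulose, 16.2 without carbon source and 1.53 on glucose. On cellulose it was 19.3 in Δ*clrB* and 6.12 in Δ*amyR*, and among the strains without *creA* 86.1 in Δ*creA*, 16.5 in the double mutant and 60 in Δ*creA-gpdA*(p)::*clrB*. PDE_09999 to PDE_10010 went from 1.65 on glucose and 2.74 in Δ*amyR* to 24.8 in the wild-type strain on cellulose and 90.2 in Δ*creA*, and PDE_01064 to PDE_01074 from 1.56 and 5.84 to 30.7 and 138. In these runs the double mutant stood above Δ*clrB*, at 19.6 against 11.9 RPKM and at 41.7 against 13.8 RPKM. In PDE_02138 to PDE_02141, as in the first run, it was close to Δ*clrB*, at 16.5 against 17.4 RPKM. The second Δ*creA* library and the second Δ*creA-gpdA*(p)::*clrB* library were the lowest of their groups in every run, with medians in the first run of 58.3 against 102 and 97.8 RPKM, and of 24.5 against 77.6 and 77.6 RPKM. What sets these libraries apart was not tested.

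**Figure D5:**
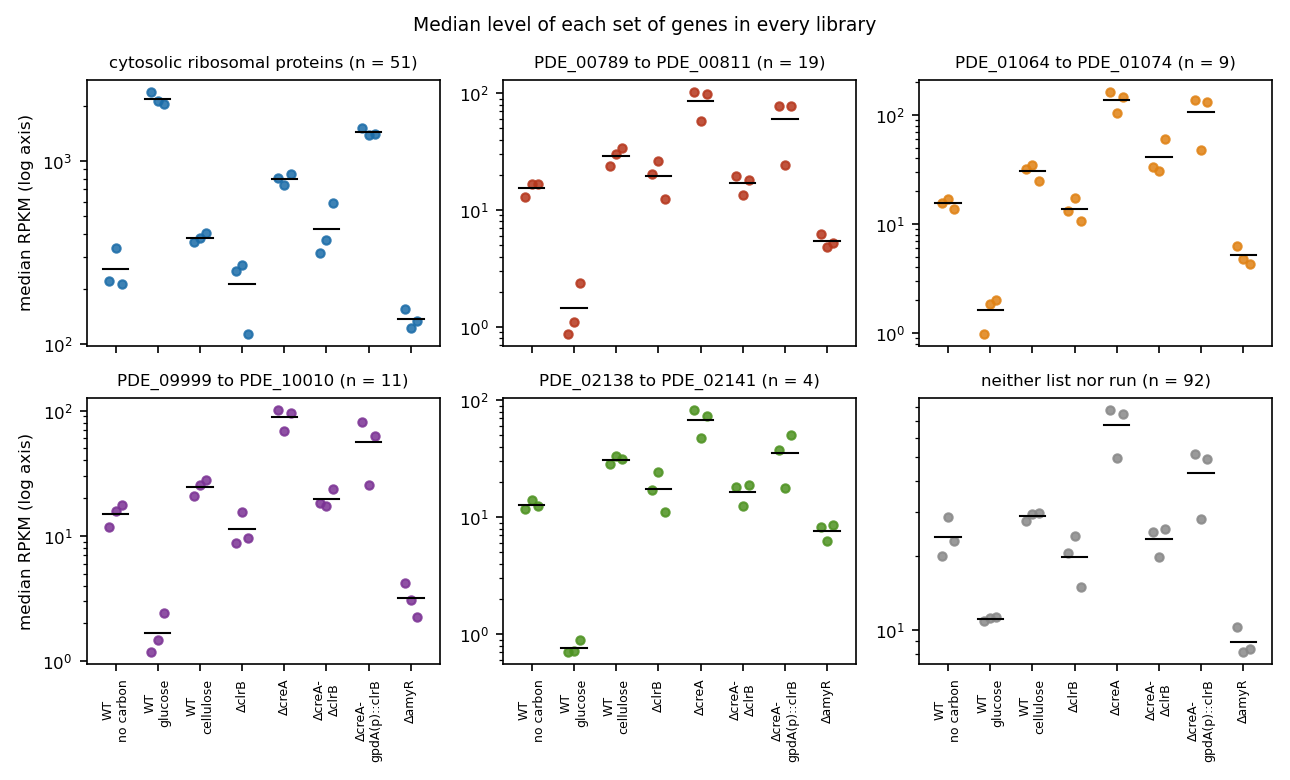
Median RPKM (log axis) over the genes of each group in every library, with 1 point per library and a line at the mean of 3. The ribosomal protein genes are highest on glucose and the 4 runs lowest there, while all 6 groups are higher in ΔcreA than in the wild-type strain on cellulose and lower in ΔamyR.

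On glucose, 40 of the 43 genes fell against no carbon source, with a median log2 fold change of -3.32, and none was called higher. PDE_10000 had 20.2, 23.8 and 28.6 RPKM without carbon source and 1.2, 0.7 and 2.4 RPKM on glucose (log2 fold change -3.82, standard error 0.37, adjusted p = 1.8e-08). PDE_01066 had 48.7, 60.2 and 49.0 RPKM against 6.5, 8.4 and 10.9 RPKM (log2 fold change -2.41, standard error 0.26, adjusted p = 8.5e-08). The groups did not overlap for either gene. Among the 3 genes that were not called, PDE_01067 had 3.46 ± 0.67 RPKM without carbon source and 5.56 ± 1.87 RPKM on glucose, and PDE_00802 had 7.81 ± 1.34 and 6.40 ± 1.29 RPKM (mean ± SD, n = 3). The last of the 3, PDE_10007, had a log2 fold change of -0.97.

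After deletion of *creA* in the Δ*clrB* strain, the number of genes called differed between the runs. None of the 19 genes of PDE_00789 to PDE_00811 and none of the 4 of PDE_02138 to PDE_02141 was called, with median log2 fold changes of 0.27 and 0.21. In PDE_01064 to PDE_01074, 6 of 9 genes were higher (median 1.20), and in PDE_09999 to PDE_10010, 7 of 11 (median 1.30), of which 4 and 5 were called without the third library of both strains. PDE_10009 had 5.2, 14.3 and 7.2 RPKM in Δ*clrB* and 24.9, 25.7 and 44.0 RPKM in Δ*creA*-Δ*clrB* (log2 fold change 2.09, standard error 0.39, adjusted p = 0.00033). Its neighbour PDE_10000, with 28.9, 43.1 and 26.8 RPKM against 24.0, 31.2 and 35.3 RPKM, overlapped between the strains. Whether the runs differ from each other in this response was not tested.

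With constitutive *clrB*, 41 of the 43 genes were higher than in Δ*creA*-Δ*clrB*, with a median log2 fold change of 1.85, and from 37 to 43 were called with a library left out. PDE_10009 stood at 256, 65.5 and 159 RPKM in Δ*creA-gpdA*(p)::*clrB*, all above the 24.9, 25.7 and 44.0 RPKM of the other strain (log2 fold change 2.62, standard error 0.37, adjusted p = 9.2e-06). PDE_00807 had 75.9, 19.1 and 66.6 RPKM, against 11.2, 9.5 and 15.8 RPKM. The second library had the lowest value for both genes, yet did not reach into the range of Δ*creA*-Δ*clrB*. From Δ*creA*, where *clrB* is under its own promoter, to Δ*creA-gpdA*(p)::*clrB*, the 43 genes had a median log2 fold change of -0.24, given without a test.

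The run PDE_02138 to PDE_02141 holds PDE_02138, named a delta-9 desaturase of fatty acids, and PDE_02139, named a methylsterol monooxygenase. PDE_02139 had 15, 17.1 and 15.6 RPKM without carbon source and 0.5, 0.8 and 0.9 RPKM on glucose (log2 fold change -4.17, standard error 0.46, adjusted p = 1.1e-07). PDE_02138 fell by 3.41 on the log2 scale (standard error 0.42, adjusted p = 5e-07). The other annotated genes of sterol and lipid synthesis did not all move this way. PDE_01368, the sterol 24-C-methyltransferase of ergosterol synthesis, rose on glucose from 81.9, 120 and 107 RPKM to 278, 351 and 388 RPKM (log2 fold change 1.93, standard error 0.18, adjusted p = 7.4e-09), and PDE_05404, the betaine lipid synthase, fell (log2 fold change -1.91, standard error 0.33, adjusted p = 3.1e-05). PDE_01718, a farnesyl diphosphate synthase, was 1 of the 3 genes lower in Δ*creA*-Δ*clrB* than in Δ*clrB*, with 36.6, 32.0 and 22.5 RPKM against 9.4, 5.9 and 14.3 RPKM (log2 fold change -1.35, standard error 0.36, adjusted p = 0.0049).

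A list of 4 genes of conidial pigment and sporulation fell on glucose as the runs did. PDE_09832, a hypothetical protein and the most abundant of the 213 transcripts in the wild-type strain on cellulose, had 10347, 12104 and 14428 RPKM in the wild-type strain on cellulose, 34166, 21478 and 27392 RPKM in Δ*creA* and 2095, 1760 and 2496 RPKM in Δ*amyR*. Its level was 2280, 2727 and 4592 RPKM without carbon source and 592, 533 and 1393 RPKM on glucose (log2 fold change -1.72, standard error 0.36, adjusted p = 0.00026). PDE_09715, also a hypothetical protein, had 2375 ± 185 RPKM in the wild-type strain on cellulose, 5222 ± 1267 RPKM in Δ*creA* and 509 ± 51 RPKM in Δ*amyR* (mean ± SD, n = 3), and fell on glucose by 1.44 on the log2 scale (standard error 0.29, adjusted p = 0.00021). PDE_04496 encodes scytalone dehydratase, an enzyme of melanin synthesis in conidia, and its neighbour PDE_04495 is named a 3-oxoacyl-acyl carrier protein reductase. PDE_04496 had 42.8, 72.3 and 54.1 RPKM without carbon source and 0.5, 1.8 and 2.4 RPKM on glucose (log2 fold change -4.94, standard error 0.52, adjusted p = 5e-08), and PDE_04495 had 110, 184 and 119 RPKM against 2.0, 1.9 and 6.6 RPKM.

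None of these 4 genes was called between Δ*clrB* and Δ*creA*-Δ*clrB*, with log2 fold changes of 0.27 to 0.57. All 4 were higher in Δ*creA-gpdA*(p)::*clrB* than in Δ*creA*-Δ*clrB*, while their median log2 fold change from Δ*creA* to Δ*creA-gpdA*(p)::*clrB* was -0.15, given without a test. PDE_04496 had 62.8, 62.3 and 101 RPKM in Δ*creA*-Δ*clrB* and 516, 135 and 328 RPKM in Δ*creA-gpdA*(p)::*clrB* (log2 fold change 2.39, standard error 0.36, adjusted p = 2.1e-05).

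Among the 92 genes in neither a list nor a run, 20 rose and 40 fell on glucose, beside 19.5% and 23.1% of all genes, so that the number that rose was near the share over all genes. In Δ*creA*-Δ*clrB* 25 were higher and 1 lower than in Δ*clrB*, beside 9.99% and 7.99%, and 13 were higher without the third library of both strains. In Δ*creA-gpdA*(p)::*clrB* 47 were higher and 5 lower than in Δ*creA*-Δ*clrB*, beside 8.9% and 12.2%. PDE_01430, PDE_01431 and PDE_01433, none with a KEGG name, neighbour each other and had at most 2, 3 and 1 reads in each glucose library. With glucose set to a floor of 3 reads per library, PDE_01430 was at least 6.85-fold lower there than without carbon source, PDE_01431 at least 41.4-fold and PDE_01433 at least 20.7-fold, taken from RPKM. PDE_04105, a hypothetical protein, fell from 21.9, 28.8 and 19.1 RPKM to 0.8, 0.3 and 0.2 RPKM (log2 fold change -5.51, standard error 0.45, adjusted p = 1.2e-09).

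Among the 213 genes, the largest increases by deletion of *creA* in the Δ*clrB* strain were those of PDE_03816, PDE_01430 and PDE_04474. PDE_03816, a hypothetical protein, had 7.6, 7.1 and 5.6 RPKM in Δ*clrB* and 49.0, 38.3 and 123 RPKM in Δ*creA*-Δ*clrB* (log2 fold change 3.63, standard error 0.35, adjusted p = 7.5e-07). PDE_04474 had 12.9, 21.4 and 14.3 RPKM against 62.1, 65.9 and 139 RPKM (log2 fold change 2.71, standard error 0.30, adjusted p = 2.7e-06). These groups lay well apart, also without the third library of the double mutant. PDE_04759 was lower in the double mutant, at 0.7, 0.8 and 1.5 RPKM against 8.8, 7.6 and 2.6 RPKM (log2 fold change -2.33, standard error 0.59, adjusted p = 0.0036).

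The largest increases from Δ*creA*-Δ*clrB* to Δ*creA-gpdA*(p)::*clrB* were those of PDE_09492, PDE_04665 and PDE_09598. PDE_09492 had 3.3, 2.6 and 4.6 RPKM in Δ*creA*-Δ*clrB* and 245, 33.2 and 143 RPKM in Δ*creA-gpdA*(p)::*clrB* (log2 fold change 5.59, standard error 0.50, adjusted p = 3.4e-08). PDE_04665, with 8.8, 4.8 and 7.6 RPKM against 286, 41.0 and 165 RPKM, and PDE_09598, with 3.1, 3.0 and 1.7 RPKM against 60.5, 7.1 and 41.7 RPKM, followed with log2 fold changes of 4.78 and 4.06. The values of the second library were again the lowest of the strain, and all 3 libraries were above those of Δ*creA*-Δ*clrB*. In Δ*creA*, where *clrB* is under its own promoter, the same genes stood at 209 ± 88.1, 245 ± 57.1 and 64.4 ± 32.2 RPKM (mean ± SD, n = 3), and in Δ*amyR* at 1.19 ± 0.15, 0.483 ± 0.497 and 1.23 ± 0.32 RPKM. PDE_04665 had at most 2 reads per Δ*amyR* library, which with a floor of 3 reads is at least 9.82-fold lower than wild-type.

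Of the genes that were lower with constitutive *clrB*, PDE_01716, named an acetyl-CoA synthetase, had 8.4, 16 and 17.8 RPKM in Δ*creA*-Δ*clrB* and 5.2, 1.0 and 3.9 RPKM in Δ*creA-gpdA*(p)::*clrB* (log2 fold change -1.76, standard error 0.38, adjusted p = 0.00087, and 0.056 with only these groups in the fit). PDE_01356 stood at 9.0, 13.5 and 7.2 RPKM against 4.1, 1.9 and 2.3 RPKM (log2 fold change -1.55, standard error 0.33, adjusted p = 0.00065). The 3-dehydroquinate synthase gene PDE_00008 was the last that the naming rule picked here, at 202, 266 and 422 RPKM against 138, 51.5 and 96.4 RPKM (log2 fold change -1.35, standard error 0.51, adjusted p = 0.035). Its call was lost without the second or the third library of either strain, with adjusted p from 0.053 to 0.14.

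Comparisons with the wild-type strain on cellulose or with Δ*creA* share libraries with the rule and are given without a test, as counts of genes past 2-fold. Without carbon source, 67 of the 213 genes stood more than 2-fold below the wild-type strain on cellulose and 1 above, beside 3.74% of all genes below and 7.38% above. In Δ*clrB*, 16 stood below and 1 above (2.67% and 3.81% of all genes), and 35 stood below with libraries scaled by their totals. On glucose, 83 stood above and 102 below (22.4% and 23.5%). In Δ*creA*-Δ*clrB*, 26 stood above and 7 below (10.9% and 9.17%), which library totals turned into 10 above and 33 below. In Δ*creA-gpdA*(p)::*clrB*, 150 stood above and 4 below (12.1% and 14.6%).

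The contrasts of the rule itself gave 168 genes more than 2-fold lower in Δ*amyR* and 0 higher (6.28% and 4.45% of all genes), and 166 more than 2-fold higher in Δ*creA* and 0 lower (7.89% and 7.37%), as counted after TMM scaling. All 43 genes of the runs were in both counts, and of the 51 ribosomal protein genes 34 were in the first and 50 in the second.

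Against Δ*creA*, 128 of the 213 genes stood more than 2-fold lower in Δ*creA*-Δ*clrB* and 4 higher (9.33% and 11.3%), among them all 43 genes of the runs and 13 of the 51 ribosomal protein genes below. In Δ*creA-gpdA*(p)::*clrB*, 51 stood more than 2-fold above Δ*creA* and 14 below (4.86% and 7.26%). Of the 51 above, 45 were ribosomal protein genes, and none of the 43 genes of the runs was past 2-fold in either direction. With library totals the counts were 19 above and 25 below. *amyR* itself had 124 ± 5.76 RPKM in Δ*creA* and 20 ± 3.15 RPKM in Δ*creA-gpdA*(p)::*clrB*, against 211 ± 2.26 RPKM in the wild-type strain on cellulose and 35.3 ± 2.32 RPKM on glucose (mean ± SD, n = 3). Whether the *amyR* level has a part in these differences was not tested.

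The 205 other genes that met the limit in Δ*amyR* but had a lower RPKM in Δ*creA* than in the wild-type strain had the same median ratio of Δ*amyR* to wild-type, 0.321. Their ratio of Δ*creA* to wild-type reached 1.387 after TMM rescaling, so not all of the 205 were lower on that scale. Between Δ*clrB* and Δ*creA*-Δ*clrB*, 27 of them were called higher and 52 lower, against 100 and 3 of the 213. From the double mutant to Δ*creA-gpdA*(p)::*clrB*, 14 were called higher and 57 lower, against 150 and 7. On glucose against no carbon source, 35 were called higher and 77 lower. The shares of all genes were 9.99% higher and 7.99% lower in the first of these comparisons, 8.9% and 12.2% in the second and 19.5% and 23.1% on glucose, so that the 14 and the 35 called higher were near or below the share over all genes. These groups of genes were split by their level in Δ*creA*, so their opposite leans in the first and the second of these comparisons were not independent of that split. The difference between them was not tested.

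The 7 starch genes left out by the rule had ratios of Δ*amyR* to wild-type from 0.006 to 0.308. Their median was 0.016, against 0.321 for the genes described here. PDE_01201, with 291 RPKM in the wild-type strain on cellulose, had 1.62 RPKM in Δ*amyR*, and PDE_09417 had 1313 and 21.5 RPKM. PDE_05527, PDE_04151 and PDE_00400 fell less, from 205, 287 and 798 RPKM to 36.8, 64.2 and 246 RPKM. Their ratios were within the range of the 213 genes. Among the 213 genes, only PDE_04665, PDE_09999 and PDE_10004 had ratios under 0.09. PDE_09999 stood at 8.1, 12.1 and 10.4 RPKM in the wild-type strain on cellulose and at 0.6, 0.4 and 0.7 RPKM in Δ*amyR*, and PDE_10004 at 6.3, 7.3 and 9.1 against 0.4, 0.6 and 0.8 RPKM. Both belong to the run with the paspaline synthase gene.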

How the data were processed

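RNA-seq of 24 libraries was used, 3 for each of 8 groups assigned from the sample labels. The authors used SOAP2 to map reads on predicted transcripts of strain 114-2, and their deposited table gives, per gene and library, the read count (unnormalized), the RPKM made by the authors from that count, the transcript length and the total, and the percent of the transcript covered. A dash in the deposited count was read as 0. The submitters' processing notes name CASAVA 1.8. 0 per-sample columns were left unassigned. Gene names come from annotation columns of the study's supplementary tables.

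The genes described, and the lists, were chosen with earlier results of these data known. Counts of the 9176 genes with at least 1 RPKM in at least 3 libraries were fitted with edgeR 4.0.16 in R 4.3.3 (TMM scaling, all 24 libraries, 8 group means, quasi-likelihood test). Replicates varied by 19.9% (common dispersion 0.0395). limma 3.58.1 on log2(RPKM + 1) and log2(RPKM + 0.1), DESeq2 1.42.0 and other settings were alternatives. Methods were tested on simulated data. Named genes were the 2 highest of each list on cellulose, the 3 largest increases and decreases called in each tested comparison whose libraries did not overlap, genes the study names, the 3 nearest each limit of the rule and its extremes. Other genes of the lists and runs were named after their values were seen. Overlap was judged on TMM-scaled values, while the printed levels are RPKM. The labels describe the replicates as biological, and no pair of a group agreed within sampling noise (lowest chi-square per degree of freedom 4.46). Sequences were not used here.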

Additional observations from a re-analysis of the deposited data

How the results depend on the processing

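The number of genes taken by the rule was 113 with a limit of 0.33 in Δ*amyR*, 403 with 0.5 and 100 with TMM-scaled RPKM, and lay between 176 and 239 with a library of the 3 groups left out. On glucose against no carbon source, 83 to 90 genes were called higher and 85 to 94 lower under the 14 alternatives. Between Δ*clrB* and Δ*creA*-Δ*clrB*, 65 genes were called higher by limma with a pseudocount of 1 or of 0.1, 61 with library totals and 35 without the third library of both strains, an alternative added after the data were seen, and 67 to 112 with 1 library left out. From the double mutant to Δ*creA-gpdA*(p)::*clrB*, 126 to 155 genes were called higher, and the number lower was 2 with only these groups in the fit and 4 to 10 with 1 library left out. Without a test, library totals gave 2 genes past 2-fold above wild-type on cellulose without carbon source, 35 below in Δ*clrB*, 10 above and 33 below in Δ*creA*-Δ*clrB*, 8 below in Δ*creA-gpdA*(p)::*clrB*, and 19 above and 25 below for the latter against Δ*creA*. The change under library totals comes with a shift of the median of all genes, while that without the third library of each comes with fewer samples; other causes were not tested.

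Same-numbered libraries did not deviate together, with correlations of -0.55 to 0.12, so the numbers do not pair them. With the replicate number as a block, 87 genes were called higher and 88 lower on glucose, 98 and 3 in Δ*creA*-Δ*clrB*, and 149 and 7 in Δ*creA-gpdA*(p)::*clrB*.

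Of 95 fold changes of single genes that were recomputed under each alternative, 89 were called. Of these, 73 kept their call in every alternative, 16 lost it in at least 1, and none reversed. Among those that lost it, PDE_08100 and PDE_02864 did so between Δ*clrB* and the double mutant without the third library of both strains.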
